A study of Mus musculus with 12 samples.

Results

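ESRRB signal was examined at 11899 intergenic regions close to genes in mouse embryonic stem (ES) cells. They were chosen from the 86201 regions of a ChIP-seq count table by 3 criteria. A region had to overlap by at least 1 bp a deposited ESRRB peak of both cell lines. Its centre had to lie outside the span of every RefSeq protein-coding gene of mm10, and over 1 kb and at most 100 kb from the nearest one. These regions, called members below, made up 13.8% of the table and 36.5% of its 32615 regions found in both peak lists. Because the peaks were called on ChIP samples of these lines, the lists share data with the counts. The levels of the members, and the balance of higher and lower calls over the whole set, are therefore given as descriptions.

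The series holds 12 samples, of which 6 are ESRRB ChIP libraries and 6 are inputs, and the counts of the 6 ChIP libraries were used. The line titled NanogKO:Esrrb:Nanog ("with Nanog") was set against the line titled NanogKO:Esrrb ("without Nanog"), with 3 libraries, A, B and C, in each. Both titles carry the loss of Nanog and both carry Esrrb, so neither line is a wild type, and the labels give every sample the same cell line name, N{delta}:cE:iN. Cells were kept in serum plus leukaemia inhibitory factor (LIF), untreated. The labels do not tell how Esrrb and Nanog were supplied, whether a line is 1 clone, or which libraries had a second fixation with di(N-succinimidyl) glutarate besides formaldehyde. The labels do not say that the libraries came from separate cultures, so a p-value reflects how these libraries vary, and that variation may be technical.

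ESRRB is an orphan nuclear receptor that binds DNA through an extended site ending in AAGGTCA, and in ES cells it helps to keep the naive state of self-renewal. NANOG is a homeodomain protein of the same network, and forced Esrrb can sustain self-renewal in cells that lack Nanog. Intergenic sites bound by such factors are often enhancers, which can act on genes at a distance, so the nearest gene is a positional label and not a shown target.

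No genome was used here, so sequence could be read only where a member held the start of a noncoding RNA gene that RefSeq lists with its sequence. A window of 300 bases, with 250 before the start and 50 after it, lay wholly inside a member for 142 starts of long noncoding RNAs (lncRNAs), in 124 members. The extended ESRRB site TCAAGGTCA, searched on both strands, was present in 2.82% of those 142 windows, in 0.683% of the 293 lncRNA windows inside other regions of the table and in 0.587% of all 11588 lncRNA windows. TNAAGGTCA, which includes it, was in 6.34%, 1.02% and 1.74% of these windows, in the same order. The core AAGGTCA, which both include, was in 28.2%, 11.3% and 5.89%. Across all 32851 RefSeq windows the shares were 0.423%, 1.28% and 4.72%. The shorter motifs were chosen after the data had been seen, a match is not a binding site by itself, and these shares were not tested.

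The following stretches are shown because they place the full site inside members (for 2 of the 6 the stretch lies inside a member but the 300-base window does not), with TCAAGGTCA or its reverse complement TGACCTTGA in capitals. They are RefSeq sequence of GRCm38.p6, 5′ to 3′ on the strand of the lncRNA: Gm30234 at chr19:53064722-53064810 (minus strand), Gm34846 at chr8:88479756-88479840 (plus), Gm31515 at chr1:133859471-133859559 (plus), Gm42225 at chr5:22589733-22589821 (minus), Gm46259 at chr11:50547737-50547825 (plus) and 1700127F24Rik at chr12:112875996-112876076 (minus).
Gm30234: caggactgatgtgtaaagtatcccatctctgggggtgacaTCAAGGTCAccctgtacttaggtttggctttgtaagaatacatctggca
Gm34846: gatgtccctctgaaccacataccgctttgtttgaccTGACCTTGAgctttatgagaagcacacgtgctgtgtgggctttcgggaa
Gm31515: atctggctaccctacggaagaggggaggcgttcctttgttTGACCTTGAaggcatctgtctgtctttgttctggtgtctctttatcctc
Gm42225: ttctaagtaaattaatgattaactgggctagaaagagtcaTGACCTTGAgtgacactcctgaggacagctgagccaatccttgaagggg
Gm46259: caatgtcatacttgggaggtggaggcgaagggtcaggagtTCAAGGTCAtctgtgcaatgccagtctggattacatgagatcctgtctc
1700127F24Rik: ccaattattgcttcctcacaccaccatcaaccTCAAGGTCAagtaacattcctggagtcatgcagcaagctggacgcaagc
The full site stood in members of either direction. Levels are in CPM, each region's reads scaled to a fixed library total with TMM factors, and fold changes are with over without Nanog throughout. The member at Gm30234, 26.0 kb upstream of Xpnpep1, had 29.0, 34.4 and 33.9 CPM in libraries A, B and C with Nanog, against 19.0, 16 and 20.2 CPM without Nanog. All libraries with Nanog were above all without, and it was called higher (log2 fold change 0.81 ± 0.16 SE, adjusted p = 0.000455, edgeR's quasi-likelihood test, Benjamini-Hochberg adjusted over all regions tested). The member at Gm34846, 41.6 kb upstream of the WNT inhibitor gene Nkd1, had 12.8, 9.32 and 12.5 CPM with Nanog, against 23.5, 20.5 and 20.4 CPM without Nanog. There all libraries with Nanog were below all without, and it was called lower (-0.89 ± 0.19, edgeR adjusted p = 0.000969). Both calls held on leaving out each library. The members at the other 4 starts were not called, with log2 fold changes from -0.58 at Gm46259 to -0.15 at Gm42225.

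Platr7 belongs to a group of lncRNAs named for their link to pluripotency. Its start window, at chr10:84553289-84553588 on the minus strand and within a member 20.2 kb upstream of Ckap4, is printed whole. The member was among the wide and strong ones, as was that of Platr22 below. The window of Platr22, which lacks the core site, is not printed. The capitals mark TGACCTT, the reverse complement of AAGGTCA.
Platr7: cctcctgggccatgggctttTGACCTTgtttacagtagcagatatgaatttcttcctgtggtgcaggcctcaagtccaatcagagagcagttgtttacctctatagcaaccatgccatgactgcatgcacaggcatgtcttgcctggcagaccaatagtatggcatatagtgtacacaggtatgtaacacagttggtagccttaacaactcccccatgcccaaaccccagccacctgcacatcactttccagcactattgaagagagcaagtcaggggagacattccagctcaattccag
That member, 1746 bp wide, had 112, 106 and 116 CPM with Nanog, against 177, 153 and 177 CPM without Nanog. The libraries of the lines did not overlap, and the member was called lower (log2 fold change -0.60 ± 0.10, edgeR adjusted p = 4.44e-05). The member at the start of Platr22, 65.5 kb downstream of the pluripotency regulator gene Zfp281, had 101, 111 and 100 CPM with Nanog and 92.8, 93.1 and 87.3 CPM without Nanog. Its libraries did not overlap either, but it was not called (0.20, 95% interval -0.01 to 0.40). The start window of Platr22, also wholly inside its member of 1910 bp, held no AAGGTCA on either strand.

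Hairpins of 10 microRNAs overlapped 8 members, of which 1 was called higher and 2 lower, beside 31.4% called of all members. The sequences of miR-130a are shown because its member was the one called higher, with the seed (bases 2 to 8) in capitals.
mmu-miR-130a-3p: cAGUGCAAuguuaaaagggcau
mmu-miR-130a-5p: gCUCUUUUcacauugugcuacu
The hairpin lies on the minus strand at chr2:84741115-84741178, in a member 2.7 kb downstream of Ypel4. That member had 35.7, 31.3 and 36.3 CPM with Nanog, against 25.4, 28.9 and 18 CPM without Nanog, with no overlap (log2 fold change 0.54 ± 0.16, edgeR adjusted p = 0.0176), but the call was lost on leaving out A or C with Nanog or C without. The members at Mir760 and Mir3098 were called lower (-0.40 and -0.53), and the libraries overlapped at Mir3098. The call at Mir760 was lost without B or C with Nanog or A or C without, and that at Mir3098 without any library other than B without Nanog. The others, at Mir6347, Mir7229, Mir1983, Mir212 with Mir132, and Mir9-2 with Gm51268, were not called. The counts measure ESRRB on DNA and say nothing of whether any of these RNAs was made.

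Members were wider and of higher signal than the regions as a whole. Their width had a median of 514 bp, against 346 bp over all regions, and ran from 110 to 4519 bp. The peak list with Nanog covered a median of 509 bp of a member and the list without Nanog 326 bp. The distance to the nearest protein-coding gene had a median of 16 kb, with quartiles at 6.18 and 36.5 kb. The median level was 26.8 CPM per kb with Nanog and 30.8 CPM per kb without Nanog. Over all regions it was 18.9 CPM per kb with Nanog and 19.9 CPM per kb without Nanog. Members held 25.8%, 25.8% and 26.1% of all region counts in libraries A, B and C with Nanog, against 28.0%, 27.6% and 27.5% without Nanog. Counts over all regions ranged from 6689166 to 8382646 per library with Nanog and from 2734338 to 5193707 without Nanog. The median member had 96, 121 and 115 reads with Nanog and 43, 58 and 81 without Nanog, so the counting error was larger without Nanog.

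All 11899 members passed the count filter and entered a test across 84892 regions. Of them, 888 (7.46%) were called higher and 2849 (23.9%) lower with Nanog at an edgeR adjusted p under 0.05, and 8162 were not called. Across all regions tested, 19.2% were called, 9.42% higher and 9.78% lower. Among members 31.4% were called, and their median log2 fold change was -0.23, with quartiles of -0.54 and 0.09. Differences of at least 2-fold were called at 108 members higher (background 4.38% of all regions) and at 477 lower (background 2.09%). All libraries with Nanog lay above all libraries without in 12.1% of members (background 17.0%), and below them in 34.9% (background 16.8%). The rule asks for a peak in the shallower line without Nanog as well, so nothing is read from this balance. A change of under 1.5-fold in either direction held over the whole 95% interval at 3695 members, or 31.1% (background 16.5%). Leaving out library B with Nanog gave 558 higher and 1772 lower, leaving out A with Nanog 1815 lower, and leaving out C with Nanog 587 higher.

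**Figure D1:**
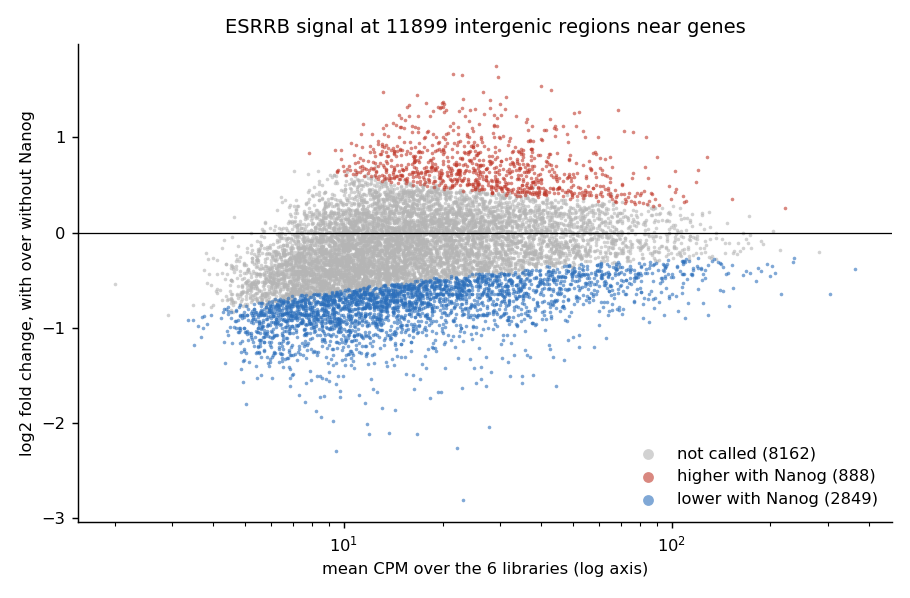
Each point is a member, placed by its mean CPM over the 6 libraries (log axis) and by its log2 fold change, with over without Nanog. The 888 members called higher include 1 in the lowest 20% by signal and 66 in the next, while the 2849 called lower have 747 and 521 there and reach -2.81.

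The direction of the calls went with the signal. In the lowest 20% of members by mean signal, 1 was called higher and 747 lower, with a median log2 fold change of -0.53. In the middle 20% 183 were higher and 495 lower (median -0.15). In the highest 20% 341 were higher and 609 lower (median -0.09), and 56.3% had an interval within 1.5-fold. The part that the rule itself, which asks for a peak in the line without Nanog, has in the direction of weak members was not tested.

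The largest increases with Nanog lay at genes of varied function. The 12 largest were taken from called members of median signal or more, without overlap between the lines and with 1 per gene. They had log2 fold changes from 1.36 at Mcam to 1.75 at Mgat4e. The member at chr1:134534927-134536083, 5.4 kb downstream of Mgat4e, had 40, 49.4 and 45.1 CPM with Nanog, against 14.9, 11.8 and 13.5 CPM without Nanog. That is a log2 fold change of 1.75 ± 0.16 (edgeR adjusted p = 6.26e-09), and every library with Nanog was more than 2-fold above the highest without. Near Sumo3, which encodes a ubiquitin-like modifier, the member at chr10:77602814-77603470 had 49.1, 40.7 and 44.6 CPM with Nanog, against 14.5, 12.1 and 16.3 CPM without Nanog (1.63 ± 0.16). Near Ntn1, which encodes the guidance protein netrin-1, the member at chr11:68400604-68401876 had 56.3, 62.0 and 59.2 CPM with Nanog, against 22.4, 20.2 and 19.0 CPM without Nanog (1.54 ± 0.14). The triplets were tight and far apart at both.

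Further increases stood near Kat6b, a histone acetyltransferase gene, with 45.7 ± 2.4 CPM with Nanog and 17.0 ± 1.1 CPM without Nanog (SD, n = 3 per line, as for all means here). Near Opa1, whose product fuses mitochondrial inner membranes, a member 57.2 kb downstream had 40.5 ± 3.9 CPM with Nanog and 15.4 ± 2.1 CPM without Nanog. Near Cd180, a Toll-like receptor relative of B cells, a member 38.0 kb upstream had 62.7 ± 2.4 CPM with Nanog and 22.6 ± 4.4 CPM without Nanog. The other 6 lay near Ankrd66, Eif3e, Aym1, Iyd, Spp2 and Mcam, and the adjusted p-values of all 12 ran from 4.3e-09 at Ntn1 to 1.24e-05 at Iyd (edgeR).

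**Figure D2:**
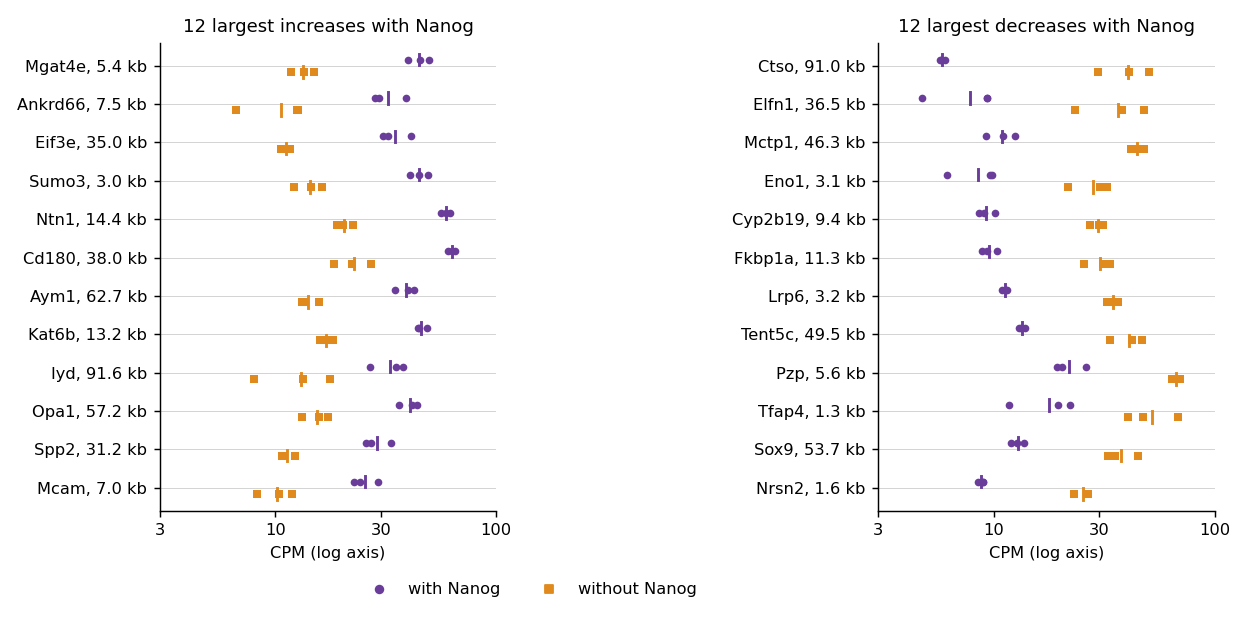
CPM (log axis) of the 12 largest increases (left panel) and the 12 largest decreases (right panel), labelled by nearest gene and distance. Circles are the 3 libraries with Nanog, squares the 3 without, and vertical ticks their means. In no row do the lines overlap, since the members were chosen so.

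The 12 largest decreases, chosen in the same way, ran from -1.54 near Nrsn2 to -2.81 near Ctso. Of these, 6 averaged under 10 CPM with Nanog. The member at chr13:76335860-76336335, 46.3 kb upstream of Mctp1, which encodes a calcium-binding membrane protein, had 12.5, 9.20 and 11 CPM with Nanog, against 41.8, 48.0 and 44.1 CPM without Nanog. Its log2 fold change was -2.04 ± 0.16 (edgeR adjusted p = 3.55e-10), with a wide space between the lines. The member at chr6:128477469-128478529, 5.6 kb downstream of Pzp, a protease inhibitor gene, had 26.1, 20.3 and 19.4 CPM with Nanog, against 69.7, 64.2 and 66.1 CPM without Nanog (-1.61 ± 0.14). The member at chr4:150251666-150252345, 3.1 kb downstream of the glycolytic enolase gene Eno1, had 9.77, 6.13 and 9.56 CPM with Nanog, against 30.2, 21.6 and 32.6 CPM without Nanog (-1.74 ± 0.20). All libraries with Nanog were below all without at each of them.

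A member 53.7 kb from Sox9, a transcription factor gene of cartilage and the testis, had 12.8 ± 0.87 CPM with Nanog and 37.8 ± 6.5 CPM without Nanog. A member 49.5 kb downstream of Tent5c, a poly(A) polymerase gene, had 13.4 ± 0.46 CPM with Nanog and 40.8 ± 6.7 CPM without Nanog. One 1.3 kb from Tfap4, which encodes a helix-loop-helix factor, had 17.8 ± 5.4 CPM with Nanog and 52.1 ± 15 CPM without Nanog, a wider spread than at the others. The remaining members lay near Ctso, Elfn1, Lrp6, Cyp2b19, Fkbp1a and Nrsn2. Cyp2b19 belongs to a family of near copies, and the labels do not tell how reads matching several places were treated.

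The members with the most reads changed less. By total signal the first 12, with 1 per gene, lay near Mcl1, Tcf15, Tet1, Phc1, A930007A09Rik, Slc2a1, Rab3c, Pdgfa, Gli2, Vmn2r90, Cdk12 and Cbfa2t2, and 8 of them were called lower and 1 higher. In the highest 20% of members by signal 25.6% were lower and 14.3% higher. The shares were 23.9% and 7.46% of all members, and 9.78% and 9.42% of all regions tested. The 12 were wide, from 1613 to 4519 bp, which adds to their totals. Per length, the member 1.1 kb downstream of the growth factor gene Pdgfa had 104 CPM per kb with Nanog and 164 CPM per kb without Nanog, the highest of these in both lines. Its libraries had 178, 154 and 170 CPM with Nanog, against 300, 244 and 247 CPM without Nanog, without overlap (-0.65 ± 0.09, edgeR adjusted p = 9.76e-06). The widest, 4519 bp, 10.1 kb upstream of the DNA demethylation gene Tet1, had 262 ± 8.2 CPM with Nanog and 300 ± 0.92 CPM without Nanog. It was not called (-0.20, 95% interval -0.36 to -0.03). Near Gli2, a Hedgehog pathway factor gene, the difference was 0.02, with an interval of -0.16 to 0.20. The call near Slc2a1, a glucose transporter gene, was lost on leaving out any of A, B or C with Nanog or C without. That near Phc1 was lost without B or C with Nanog or A without, that near Cdk12 without B with Nanog or A or C without, and that near A930007A09Rik without A or B with Nanog or A or C without. The calls near Mcl1, Vmn2r90 and Cbfa2t2 were lost with a loess offset on signal, as were those near A930007A09Rik, Cdk12 and Phc1. Vmn2r90 lies in a multigene family, so its reads may be shared with copies.

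Genes of naive pluripotency carried members of both directions. Of 79 members nearest to genes of this list, 16 (20.3%) were higher, 11 (13.9%) lower and 52 not called, beside 7.46% and 23.9% among all members. With 1 library left out there were 12 to 20 higher and 5 to 13 lower, the fewest lower without A with Nanog. The median log2 fold change was -0.03, and 0.01 or 0.02 by column totals or the loess offset. No member was nearest to Esrrb itself, the gene of the receptor measured, although 33 tested regions were.

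Klf4, a reprogramming factor gene, had 6 members, of which 3 were called higher and none lower, all 3 between 49.6 and 63.1 kb downstream. At chr4:55462790-55465294 there were 94.9, 110 and 103 CPM with Nanog, against 51.1, 51.3 and 47.5 CPM without Nanog (log2 fold change 1.05 ± 0.11, edgeR adjusted p = 9.59e-08). At chr4:55476821-55478195 there were 74.9, 69.1 and 73.6 CPM with Nanog, against 34.3, 38.1 and 31.4 CPM without Nanog (1.07 ± 0.12). The stronger member between them, at chr4:55474919-55476599, had 148, 146 and 146 CPM with Nanog, against 86.1, 111 and 82.6 CPM without Nanog (0.66 ± 0.11). The libraries with Nanog were above those without at all 3, and hardly varied among themselves at the last. The other 3 members of Klf4 were not called, with log2 fold changes from -0.34 to 0.12.

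At Prdm14, which encodes a repressor of differentiation, 2 of 7 members were higher and none lower. The strongest, 9.3 kb away, was not called (0.20). The one at chr1:13084489-13085501, 28.4 kb away, had 34.0, 41.9 and 38.7 CPM with Nanog, against 19.4, 21.3 and 17.1 CPM without Nanog (1.00 ± 0.15, edgeR adjusted p = 2.64e-05). At Tfcp2l1, a factor of the LIF response, the member 1.7 kb upstream had 64.3, 89.4 and 67.5 CPM with Nanog, against 39.5, 47.7 and 37.7 CPM without Nanog (0.83 ± 0.14). Neither pair of triplets overlapped, though library B stood highest in both lines at Tfcp2l1, and 1 of the other 3 members of that gene was lower. Klf5, a relative of Klf4, had 2 members higher and 2 lower of 7. The strongest, 26.9 kb away, was called lower (-0.31), a call that did not hold on leaving out each library. The member 12.0 kb away had 83.1 ± 6.6 CPM with Nanog and 58.5 ± 1.5 CPM without Nanog (0.51), and the member 18.2 kb away had 41.7 ± 2.6 CPM with Nanog and 65.9 ± 11 CPM without Nanog (-0.66). Both were called, in opposite directions.

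Zfp42, the gene of the ES cell marker REX1, had 3 members higher and 1 lower of 7. Its strongest, 14.0 kb upstream, had 114 ± 11 CPM with Nanog and 123 ± 7.3 CPM without Nanog and was not called, while one 25.1 kb upstream had 36.8 ± 3.5 CPM with Nanog and 21.3 ± 6.1 CPM without Nanog (0.77). Nanog had 2 members. The one 4.7 kb upstream had 83.0, 84.2 and 81.9 CPM with Nanog, against 60.8, 75.7 and 56.3 CPM without Nanog, a difference of 0.37 ± 0.12 (edgeR adjusted p = 0.0223). That call was lost on leaving out any library other than B without Nanog. None of 6 members of Klf2 was called, and of 13 at Tbx3 1 was higher and 1 lower.

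**Figure D3:**
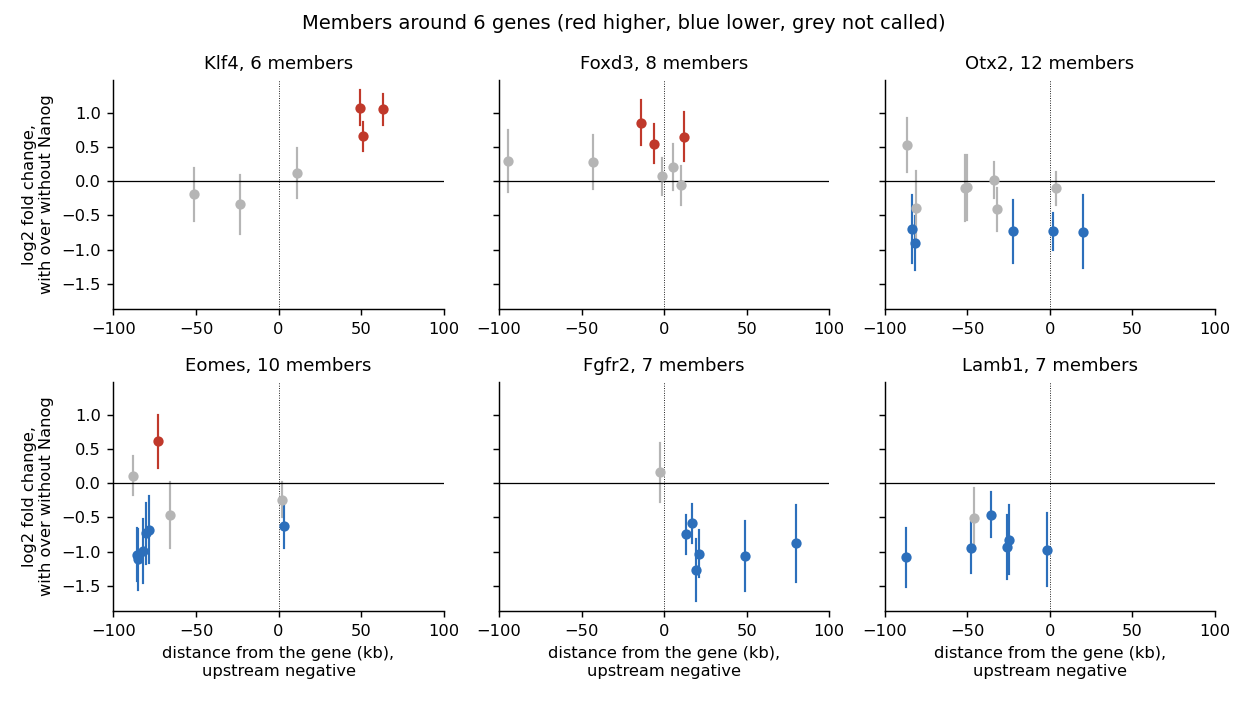
Log2 fold change of each member around Klf4, Foxd3, Otx2, Eomes, Fgfr2 and Lamb1 by its distance from the gene in kb, with upstream negative. Vertical lines are 95% intervals, and colours give the call. The 3 higher members of Klf4 sit 49.6 to 63.1 kb downstream, and 5 of the 6 lower members of Eomes sit 78.6 to 85.6 kb upstream.

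Members near general pluripotency genes had 2 higher (3.12%), 17 lower (26.6%) and 45 not called of 64, beside 7.46% and 23.9% of all members, and a median of -0.23, as over all members. Leaving out B with Nanog left 9 lower and 1 higher. Pou5f1, which encodes OCT4, had 2 members. The one 6.8 kb upstream had 17.5, 26.4 and 19.9 CPM with Nanog, against 15.7, 9.26 and 10.4 CPM without Nanog, and was called higher (0.90 ± 0.21, edgeR adjusted p = 0.00251). The stronger one, 3.3 kb upstream, had 40.4 ± 2.0 CPM with Nanog and 39.8 ± 6.1 CPM without Nanog (0.03). Of 8 members of Sox2, 1 was lower, and the strongest, 16.1 kb downstream, had 62.0 ± 6.8 CPM with Nanog and 73.5 ± 8.8 CPM without Nanog (-0.25, not called). At Mybl2, a cell cycle factor gene, the member 2.1 kb upstream had 141, 134 and 142 CPM with Nanog, against 213, 176 and 182 CPM without Nanog (-0.45 ± 0.09). Sall4 and Jarid2 had 4 lower and none higher each, of 8 and 12 members.

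Against 7.46% and 23.9% of all members, the formative and primed list had 7 higher (10.9%), 15 lower (23.4%) and 42 not called of 64. Its median was -0.14, and its genes differed. Leaving out C without Nanog left 9 lower, and leaving out B with Nanog left 4 higher. Otx2, a factor of the exit from naive pluripotency, had 5 lower and none higher of 12. Its strongest member, 3.8 kb downstream, was not called (-0.10). Its member at chr14:48654240-48655652, 1.8 kb downstream, had 42.9, 37.1 and 46.4 CPM with Nanog, against 74.9, 55.0 and 78.6 CPM without Nanog (-0.73 ± 0.13, edgeR adjusted p = 0.000229). Foxd3, a forkhead repressor gene, had 3 higher and none lower of 8. Its strongest member, 10.5 kb downstream, was not called (-0.06). Its member 14.2 kb upstream had 27.3, 31.8 and 33.8 CPM with Nanog, against 17.2, 18 and 16.5 CPM without Nanog (0.85 ± 0.16), and the one 5.9 kb upstream 48.8, 45.9 and 47.0 CPM with Nanog, against 38.4, 28.0 and 31.2 CPM without Nanog (0.55 ± 0.14). The call of the other higher one, 11.8 kb downstream (0.65), was lost without B with Nanog or without C without Nanog. The libraries did not overlap at the called members of Otx2 and Foxd3 given here. Tcf15, named above among the strongest, had 3 lower of 7. Its strongest member, 28.8 kb away, had 238 ± 13 CPM with Nanog and 371 ± 36 CPM without Nanog and was called lower (-0.64).

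Members near primitive endoderm genes were lower at 27 of 61 (44.3%, beside 23.9% of all members). They were higher at 1 (1.64%, beside 7.46%) and not called at 33, with a median of -0.50. Leaving out 1 library gave 19 to 26 lower, and the higher call was lost without B or C with Nanog or A or C without. Lamb1, a basement membrane laminin gene, and Fgfr2, a fibroblast growth factor (FGF) receptor gene, held 6 lower of 7 each. Without those 2 genes 15 of 47 (31.9%) were lower. At Lamb1 the member 47.5 kb upstream had 12.1, 11.3 and 14.0 CPM with Nanog, against 25.7, 28.6 and 18.8 CPM without Nanog (-0.95 ± 0.19, edgeR adjusted p = 0.000502). At Fgfr2 the member 21.0 kb downstream had 11.4, 13.4 and 14.4 CPM with Nanog, against 26.8, 28.6 and 25.1 CPM without Nanog (-1.03 ± 0.17). Every library with Nanog was below every library without at both. The strongest member of Fgfr2, 16.6 kb downstream, was also called lower, with a smaller change (-0.59). A member 74.7 kb from Gata6, the factor that specifies this lineage, had 18.3 ± 1.3 CPM with Nanog and 32.9 ± 6.0 CPM without Nanog (-0.86), and one 8.7 kb upstream of Sparc, a matrix protein gene, had 31.7 ± 3.6 CPM with Nanog and 46.6 ± 1.8 CPM without Nanog (-0.56). Sox17 and Cubn had both of their members lower. At other genes of the list no member was called, as at the 4 of Lama1 (median 0.38) and the 2 of Lrp2 (0.06). Pdgfra had 2 lower of 7, and its strongest member, 13.7 kb upstream, was not called (-0.31).

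Trophoblast genes had 5 higher, 20 lower and 21 not called of 46 (median -0.38), and mesendoderm genes 3 higher, 12 lower and 9 not called of 24 (median -0.52). Both lists hold Eomes, a T-box factor gene with 1 member higher and 6 lower of 10, and the trophoblast list also holds Fgfr2. Without Eomes the lower counts were 14 of 36 for trophoblast and 6 of 14 for mesendoderm. Leaving out 1 library gave 15 to 22 lower for trophoblast and 6 to 10 for mesendoderm, the fewest for mesendoderm without A with Nanog. The higher counts were 3 to 6 for trophoblast, the fewest without C without Nanog, and 0 to 3 for mesendoderm, with none left without A or C with Nanog. Around Eomes, 5 lower members lay within a stretch 78.6 to 85.6 kb upstream, with log2 fold changes from -1.11 to -0.68, and the higher one lay 73.1 kb upstream (0.61). Of these, the calls at 78.6, 80.4 and 73.1 kb were each lost on leaving out C without Nanog or A with Nanog, among others, and that of the lower member 3.3 kb from the gene on leaving out C without Nanog. Those at 82.4, 84.9 and 85.6 kb held each time. The strongest member of Eomes, 2.0 kb downstream, was not called (-0.24). The member 85.6 kb upstream had 9.77, 9.79 and 8.66 CPM with Nanog, against 20.9, 17.7 and 20 CPM without Nanog (-1.05 ± 0.19, edgeR adjusted p = 0.000188). Its triplets were tight and apart. Both members of the trophectoderm factor gene Cdx2 were lower, the stronger with 41.7, 39.0 and 40.1 CPM with Nanog, against 66.4, 48.2 and 66.3 CPM without Nanog (-0.58 ± 0.13). The member 70.7 kb upstream of Foxa2, an endoderm factor gene, had 19.7 ± 1.2 CPM with Nanog and 39.0 ± 6.9 CPM without Nanog (-0.98). Neuroectoderm genes had 2 higher (6.67%), 5 lower (16.7%) and 23 not called of 30, with 16 members at the Notch effector gene Hes1 alone. Leaving out A with Nanog left 3 lower, and leaving out C of either line left none higher.

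**Figure D4:**
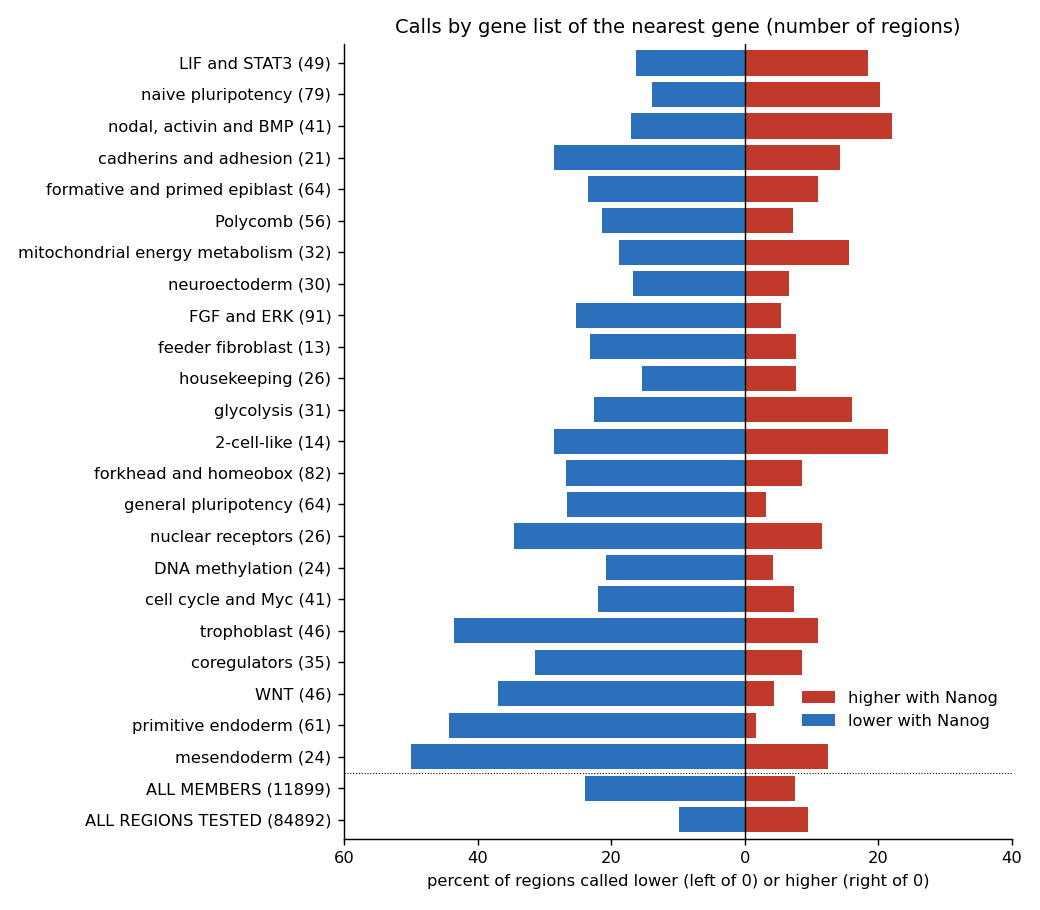
Percent of members called higher (right of 0) and lower (left of 0) by the gene list of their nearest gene, ordered by median log2 fold change, with the number of members in brackets. Below the dotted line stand all 11899 members and all 84892 regions tested. Lower calls reach 50% for mesendoderm, 44.3% for primitive endoderm and 43.5% for trophoblast, against 23.9% of all members. The median level with Nanog was 11.2 CPM for mesendoderm, 11.3 CPM for primitive endoderm, 11.5 CPM for WNT and 11.4 CPM for coregulators. It was 14.4 CPM for all members, 15.8 CPM for trophoblast, 21.8 CPM for naive and 24.0 CPM for general pluripotency. Direction went with signal over all members, and the part of signal in the shares of the lists was not tested.

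Signalling lists are given beside the 7.46% higher and 23.9% lower of all members, with no test between lists. LIF and STAT3 genes had 9 higher (18.4%), 8 lower (16.3%) and 32 not called of 49 (median 0.06), and 6 higher and 8 lower of 43 without Klf4, which this list shares with the naive list. With 1 library left out there were 5 to 10 higher and 3 to 7 lower, the fewest lower without B with Nanog and the fewest higher without A or B with Nanog. The member 5.0 kb upstream of Socs3, the feedback inhibitor of this pathway, had 118 ± 3.6 CPM with Nanog and 109 ± 9.4 CPM without Nanog (0.13, not called). Nodal, activin and BMP genes had 9 higher (22%), 7 lower (17.1%) and 25 not called of 41 (median -0.04, and 0.0 by column totals), with 5 to 9 higher and 3 to 7 lower on leaving out 1 library, the fewest lower without A with Nanog and the fewest higher without B or C with Nanog. A member 22.8 kb from Smad7, an inhibitory SMAD gene, had 99.0 ± 7.7 CPM with Nanog and 75 ± 2.6 CPM without Nanog (0.40), a call lost without C with Nanog.

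FGF and ERK genes had 5 higher (5.49%), 23 lower (25.3%) and 63 not called of 91 (median -0.19). On leaving out 1 library 18 to 22 were lower and 3 to 6 higher, the fewest higher without B or C with Nanog. Of the lower ones, 6 were those of Fgfr2. WNT genes had 2 higher (4.35%), 17 lower (37.0%) and 27 not called of 46 (median -0.39). On leaving out 1 library 12 to 20 were lower, and without A without Nanog 1 was higher. The member 61.0 kb downstream of Axin2, a feedback gene of that pathway, had 58.9, 58.5 and 55.4 CPM with Nanog, against 88.4, 88.1 and 70.2 CPM without Nanog (-0.50 ± 0.12, edgeR adjusted p = 0.0023). Both members of Ctnnb1, the beta-catenin gene, were lower (median -0.79), and those of the frizzled receptor gene Fzd10 were lower at 3 of 6. The strongest members of Fzd2, Fzd7 and Lef1 were not called (0.01, 0.07 and 0.17). The 2 higher calls lay at Lrp6 and Tcf7l1, each of which also had 1 lower. The libraries did not overlap at the member of Axin2.

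Genes of ESRRB's own class and of its cofactors had few members. They are given beside 7.46% higher and 23.9% lower of all members. Nuclear receptor genes had 3 higher (11.5%), 9 lower (34.6%) and 14 not called of 26 (median -0.24). On leaving out 1 library 6 to 8 were lower, the fewest without A with Nanog. The lower ones included 3 of 5 members at Nr2f2 and 2 of 3 at Nr5a2, the gene of another activator of pluripotency genes. Coregulator genes had 3 higher (8.57%), 11 lower (31.4%) and 21 not called of 35 (median -0.39). Leaving out 1 library gave 8 to 13 lower. All 3 higher ones belonged to Hdac2, a histone deacetylase gene, of its 4 members. The one 38.1 kb upstream had 31.1, 29.7 and 27.4 CPM with Nanog, against 14.9, 15.7 and 14.9 CPM without Nanog (0.95 ± 0.16, edgeR adjusted p = 9.73e-05), and the one 50.4 kb upstream 32.4, 32.1 and 30.3 CPM with Nanog, against 16.4, 20.2 and 20.4 CPM without Nanog (0.72 ± 0.15). Tbl1xr1, a gene of the NCoR complex, held 5 of the lower ones, of 12 members, and Arid1a, a chromatin remodeller gene, had its 1 member lower (26.5 ± 3.6 CPM with Nanog, 40.6 ± 4.1 CPM without Nanog).

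The next lists stand beside 7.46% higher and 23.9% lower of all members. DNA methylation genes had 1 higher (4.17%), 5 lower (20.8%) and 18 not called of 24 (median -0.25). Leaving out C without Nanog left 2 lower. Polycomb genes had 4 higher (7.14%), 12 lower (21.4%) and 40 not called of 56 (median -0.15). On leaving out 1 library 9 to 15 were lower, with 2 higher left without A, B or C with Nanog or A without. The member 4.8 kb downstream of Eed, a core subunit gene of Polycomb complex PRC2, had 45.1, 47.6 and 46.3 CPM with Nanog, against 78.7, 97.9 and 69.8 CPM without Nanog (-0.82 ± 0.12, edgeR adjusted p = 1.83e-05). The libraries stood well apart, and another of the 4 members of Eed was called higher. Mitochondrial genes had 5 higher (15.6%), 6 lower (18.8%) and 21 not called of 32 (median -0.17). Glycolysis genes had 5 higher (16.1%), 7 lower (22.6%) and 19 not called of 31 (median -0.22). Leaving out 1 library gave 4 to 6 lower for mitochondrial genes and 4 to 8 for glycolysis genes, the fewest without A with Nanog for mitochondrial genes and without B with Nanog for glycolysis genes. The higher counts were 2 to 4 for mitochondrial genes, the fewest without A or B with Nanog, and 1 to 6 for glycolysis genes, the fewest without C with Nanog. Pdk4, which encodes a kinase that restrains pyruvate dehydrogenase and is a known target of ESRRB's relatives, had a member 80.9 kb upstream with 30, 34.7 and 35.7 CPM with Nanog, against 54.4, 53.6 and 56.1 CPM without Nanog (-0.71 ± 0.13).

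Cell cycle and Myc genes had 3 higher, 9 lower and 29 not called of 41 (median -0.30), with 4 lower left without A with Nanog, and 1 higher left without B or C with Nanog or A or C without. Both members of Max, the partner of MYC, were lower, the stronger with 71.3, 63.0 and 72.2 CPM with Nanog, against 124, 103 and 115 CPM without Nanog (-0.73 ± 0.11, edgeR adjusted p = 1.46e-05). A member 1.5 kb upstream of Mycn had 92.7 ± 5.4 CPM with Nanog and 129 ± 19 CPM without Nanog (-0.49), and one 6.2 kb downstream of the phosphatase gene Cdc25a had 98.6 ± 0.92 CPM with Nanog and 133 ± 12 CPM without Nanog (-0.43). Cadherin and adhesion genes had 3 higher (14.3%), 6 lower (28.6%) and 12 not called of 21 (median -0.09). Without A with Nanog 3 were lower. Cdh6, a cadherin gene, had a member 35.9 kb upstream with 37.5, 43.9 and 48.3 CPM with Nanog, against 23.5, 25.5 and 20.8 CPM without Nanog (0.90 ± 0.15), and its other member was lower. No library of 1 line overlapped those of the other at any member whose CPM levels are given here.

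Clusters of members that changed 1 way were found at a small number of genes, which were picked after their values were seen and are given as descriptions. The members had 6137 nearest genes, of which 3451 had 1 member and 35 had 10 or more. At 565 genes the calls were higher only, at 2035 lower only, at 189 of both kinds, and at 3348 no member was called. Kazn, which encodes a cell junction protein, had 7 lower of 10. Its strongest member, 11.1 kb upstream, had 25.5, 28.1 and 24.3 CPM with Nanog, against 47.4, 52.2 and 52.9 CPM without Nanog (-0.97 ± 0.13, edgeR adjusted p = 4.52e-06). Chst1 had 5 lower of 10 and Mbip 5 lower of 8, where the strongest member had 97.0, 85.1 and 97.0 CPM with Nanog, against 167, 152 and 148 CPM without Nanog (-0.74 ± 0.10). In the other direction, Tmco5 had 4 higher of 5, with 95.9, 109 and 86.8 CPM with Nanog, against 43.6, 45.7 and 31.6 CPM without Nanog at the strongest (1.29 ± 0.13). At least 3 higher and none lower were found at 11 genes, and at least 3 lower and none higher at 100 genes. Among the genes with 13 or more members, Hes1 had 2 higher and 2 lower of 16, Zfp64 0 and 3 of 15, Irf2bpl 3 and 2 of 14, Rybp 2 and 2 of 13, Sall1 3 and 1 of 13, Tbx3 1 and 1 of 13, and Zfp217 1 and 3 of 13.

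Called neighbours went opposite ways less often the closer they lay. Lower calls outnumbered higher ones (2849 against 888), so a shared direction was common at every distance. Among pairs of neighbouring members that were both called, 6 of 129 (4.65%) went opposite ways when their centres were up to 2 kb apart. The share was 18.1% at 2 to 5 kb, 24.6% at 5 to 20 kb, 27.4% at 20 to 100 kb and 33.1% beyond 100 kb. Of the 129 closest pairs, 104 were both lower and 19 both higher. Over all neighbouring pairs the correlation of their log2 fold changes was 0.45 up to 2 kb (1003 pairs), 0.26, 0.18 and 0.08 in the next bins, and 0.02 beyond 100 kb (4180 pairs). These are descriptions across regions of the same libraries, with no test.

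**Figure D5:**
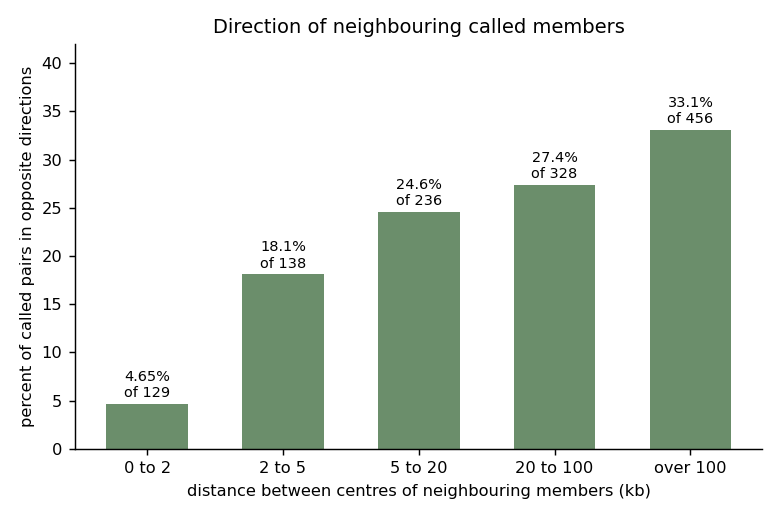
Percent of neighbouring pairs of called members whose calls point in opposite directions, by the distance between their centres in kb. Numbers over the bars are the percent and the number of pairs with both members called, and the share goes from 4.65% in the closest pairs to 33.1% beyond 100 kb.

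Shares of calls were similar over the positions relative to the gene. Of members 1 to 5, 5 to 20, 20 to 50 and 50 to 100 kb away, 28.0%, 31.6%, 33.0% and 32.6% were called, with median log2 fold changes from -0.25 to -0.22. Upstream of the nearest gene 31.8% of 5354 members were called, and downstream 32.0% of 4047. The strand of the gene was not found for 2498. Members in no annotated gene (9652) and in a noncoding gene or pseudogene (2247) had 31.5% and 30.9% called. The 258 that overlapped the start window of a lncRNA had 19 higher and 50 lower calls and a median of -0.08, and the 124 that held one whole had 12 higher and 19 lower and a median of 0.02. The members just inside the limit of 1 kb, near Gata3, Cldn25-ps and H4c8, had log2 fold changes of 0.52, 0.03 and -0.17, and the regions just outside it, near Zfp568, Csad and Rplp1, 0.43, 0.09 and -0.41. Just inside 100 kb, near Pabpc2, Tafa5 and Tmprss15, the values were -0.51, -0.93 and -0.16, and just outside, near Cbln4, Sulf1 and Cited2, -0.17, 0.11 and 0.86.

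Other regions in both peak lists are given beside the members, without a test of the difference. At gene ends, within 1 kb, 14.3% of 4144 regions were called (124 higher, 469 lower), and 53.2% had an interval within 1.5-fold, against 31.1% of members. Inside genes 28.3% of 13362 were called (1140 higher, 2640 lower), and over 100 kb from a gene 33.7% of 3210 (261 higher, 820 lower). Intergenic regions at the same distances as the members but in the peak list with Nanog alone numbered 16501. Of these 1732 were higher and 416 lower, while of 327 found in no peak of the line with Nanog 267 were lower and none higher. Those classes are defined by the same peak lists, so nothing is read from their balance.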

How the data were processed

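ESRRB ChIP-seq was analysed in 6 libraries, 3 per line. The authors deposited a table of read counts per region, with no normalization, and a peak list per line (85537 peaks with Nanog, 34956 without). Per the submitters' processing notes, bcl2fastq 2.19.1, Bowtie2, SAMtools 1.4.1, deepTools, MACS2 and bedtools 2.26.0 were used, with mm10. Their settings and order were not given in the sources used here. Positions relative to genes came from RefSeq (GRCm38.p6). Counts were tested with edgeR 4.0.16 (R 4.3.3; filterByExpr, which removed 1309 regions, TMM, quasi-likelihood test, Benjamini-Hochberg adjustment over 84892 regions) and also with DESeq2 1.42.0. The code was tested on simulated counts. Levels are TMM-scaled CPM, and fold changes are those of the edgeR fit. A prior count of 2 was used for log-CPM only.

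The members and the 23 gene lists were chosen with earlier results of these data known. Named members were the 12 largest increases and decreases, the 12 strongest, up to 4 genes per list by signal, a set of pluripotency and lineage genes, and those at the distance limits. Other list genes, such as Lamb1, Hdac2, Ctnnb1 and Fzd10, were outside these rules and were named after their values were seen. For some genes the member given in full is not the strongest. Among list genes, mostly members whose call held on leaving out each library are given in full. Alternatives were other scalings, filters, libraries left out, thinned libraries and stricter member rules. The result for 1 further gene is not reported here.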

Additional observations from a re-analysis of the deposited data

How the results depend on the processing

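No member's call changed direction under any of the 14 alternatives of the fit. Leaving out 1 library gave 558 to 1052 members called higher and 1772 to 2900 lower. Libraries thinned to equal totals gave 1777 lower, a mean count of at least 50 gave 222 lower by at least 2-fold, and DESeq2 gave 657 higher and 2091 lower. Requiring each list to cover at least 50% of a region gave 374 higher, 26 of them by at least 2-fold. Requiring signal at or above the median left 5950 members, with 1331 lower, 90 of them by at least 2-fold. Of all 3737 members called, 539 to 1442 lost their call on leaving out 1 library, the most without B with Nanog. DESeq2 lost 988 of 3736 calls and thinned libraries 1370 of 3729. List members were mostly named where their call held, so losses among named members do not measure how firm the calls are. Of 79 named members set against the alternatives, 72 were called, and 10 of those calls were lost in at least 1 alternative. Of the 7 not called, 5 were called under some alternative: Socs3 (0.30) and Gli2 (0.27) with the loess offset, Sox2 and Rab3c without B without Nanog or with the letter block, and Tet1 with the letter block. Among those not called, the sign changed with the loess offset near Zfp42 (0.067), Tet1 (0.096) and Rab3c (0.077), and on leaving out 1 library near Pou5f1 (-0.057 to 0.14) and Gli2 (-0.009 to 0.08). The cause was not tested. The column letters are in no label. Same-letter libraries had correlations of deviations of 0.08, 0.22 and 0.13, and each library correlated best with its own letter (other pairs -0.16 to 0.04), a hint from the data and not the design. Since 1 pair was under 0.1, the letters were not taken as pairs, and a replicate block by letter gave 1224 higher and 3669 lower. Depth limits weak members most: the median width of the 95% interval (log2) was 1.03 in the lowest 20% of members by signal and 0.53 in the highest.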

Other observations

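Further lists of nearby genes were counted in the same way, beside 7.46% higher and 23.9% lower of all members. Forkhead and homeobox genes, which encode developmental transcription factors, had 7 higher (8.54%), 22 lower (26.8%) and 53 not called of 82 members. Their median log2 fold change was -0.23, with 14 to 20 lower on leaving out 1 library. A member 50.8 kb downstream of Foxo1, a forkhead factor gene of insulin signalling, had 64.3, 57.5 and 71.9 CPM with Nanog, against 108, 93.7 and 114 CPM without Nanog (-0.70 ± 0.11, edgeR adjusted p = 4.25e-05). The libraries did not overlap. Genes of the 2-cell-like state had 3 higher (21.4%), 4 lower (28.6%) and 7 not called of 14 (median -0.23). Leaving out A with Nanog left 1 lower. Housekeeping genes had 2 higher (7.69%), 4 lower (15.4%) and 20 not called of 26 (median -0.20). Leaving out B with Nanog left 2 lower. Genes marking feeder fibroblasts had 1 higher (7.69%), 3 lower (23.1%) and 9 not called of 13 (median -0.20). Leaving out C without Nanog left 0 lower. The higher one lay 53.3 kb from Thy1, a surface marker gene, with 53.2, 57.4 and 52.0 CPM with Nanog, against 34.7, 30.9 and 27.8 CPM without Nanog (0.82 ± 0.13, edgeR adjusted p = 4.96e-05). Binding near such genes does not measure which cells were present.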
